A study of Mus musculus with 3 samples.

Results

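The genes described here are the aminoacyl-tRNA synthetases of the cytosol and of mitochondria, the scaffold proteins of the cytosolic synthetase complex, and the ATF4 stress response that controls many of them. The 47 members were chosen by gene symbol out of 55536 annotated genes, and all 47 were found. They comprise 20 cytosolic synthetase genes, 16 mitochondrial synthetase genes whose names end in 2, 2 scaffold genes, 6 genes of the ATF4 pathway and 3 kinases of the translation factor eIF2α. RNA was measured in primary macrophages derived from C57BL/6J bone marrow, with no age or sex on record. The cells were exposed to Lipid A, the part of bacterial lipopolysaccharide that activates TLR4, at 100 ng/ml for 12 h. They were then washed and kept without Lipid A for 12 h, and given 100 ng/ml again for 10 min. Cytosolic RNA was depleted of ribosomal RNA and sequenced in 3 libraries, labelled biological replicates 1, 2 and 3. All 3 libraries carry the same treatment and fraction, so no treated and untreated cells are compared. The comparisons are between groups of genes and between libraries.

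Aminoacyl-tRNA synthetases join each amino acid to its tRNA, and cytosolic and mitochondrial translation mostly use separate enzymes encoded by separate nuclear genes. When amino acids run short, uncharged tRNA activates the kinase GCN2, and other stresses activate PERK or HRI. Each phosphorylates eIF2α, which slows most translation and favours translation of the transcription factor ATF4. ATF4 then raises transcription of synthetases, amino acid enzymes and transporters by binding the C/EBP-ATF response element, or CARE. Because ATF4 protein is set largely by translation, its RNA level does not give its activity. WARS, which charges tryptophan tRNA, is also known as an interferon-inducible gene.

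The CARE is shown first because it is the DNA element that links the synthetases to ATF4. RefSeq promoters of assembly GRCm38.p6, from 250 bases before to 50 after each start site, were matched to 37 of the 47 members by symbol. Not matched were Cars, Hars, Lars, Mars, Nars, Rars, Vars, Wars, Hars2 and Pars2. The CARE was searched as TGATGNAA on both strands and was held by 8 of the 37 matched members, or 21.6%, against 4.51% of 27025 genes in the table. It was found in 5 of 12 matched cytosolic synthetases and 3 of 6 ATF4 pathway genes, and in none of the 14 matched mitochondrial synthetases, the 2 scaffolds or the 3 kinases. For each of the 8 genes, the match nearest the start site is printed below as a 30-base window with the match in capitals. Windows run 5′ to 3′ on the strand that reads TGATGNAA. The number is the distance from the start site to the first base of the match along the strand of the gene. For Aars, Gars, Iars, Tars, Trib3 and Chac1 the window is on the strand opposite the gene, so that base is the last capital.
Aars, 10, chr8:111033840-111033869, minus strand: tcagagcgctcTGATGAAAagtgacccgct
Gars, -30, chr6:55037960-55037989, minus strand: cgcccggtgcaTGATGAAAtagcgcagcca
Iars, 8, chr13:49682126-49682155, minus strand: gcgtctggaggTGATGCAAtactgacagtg
Tars, -15, chr15:11399655-11399684, plus strand: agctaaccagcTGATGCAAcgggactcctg
Yars, 4, chr4:129189895-129189924, plus strand: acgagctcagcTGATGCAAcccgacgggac
Asns, -23, chr6:7693214-7693243, minus strand: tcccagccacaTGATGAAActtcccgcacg
Trib3, 15, chr2:152344028-152344057, plus strand: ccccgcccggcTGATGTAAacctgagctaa
Chac1, -193, chr2:119351038-119351067, minus strand: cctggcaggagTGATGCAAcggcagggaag
Of these 8 matches, all but that of Chac1 began within 30 bases of the start site. A match of letters is a description of the window and not a binding site.

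The promoters of Asns and Atf4 are shown as the best known target of the element and as its regulator. The 90 bases before each start site follow, on the strand of the gene, with matches to the CARE and to the CRE core TGACG in capitals.
Asns, chr6:7693210-7693299, minus strand: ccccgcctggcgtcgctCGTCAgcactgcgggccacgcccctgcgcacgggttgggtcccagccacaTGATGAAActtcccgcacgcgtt
Atf4, chr15:80255094-80255183, plus strand: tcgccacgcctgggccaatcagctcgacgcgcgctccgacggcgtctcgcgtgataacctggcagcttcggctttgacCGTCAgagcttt
The Asns stretch held the CARE at -23 and a CRE core at -73, and the Atf4 stretch held a CRE core at -12 and no CARE. The CRE core, the centre of sites for the ATF and CREB family, was held by 16 of the 37 matched members, against 23.0% of all genes in the table. It was present in 4 of 6 ATF4 pathway genes, 4 of 12 cytosolic and 5 of 14 mitochondrial synthetases.

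Letters that interferon-activated factors bind were searched because of Wars, whose promoter was among those not matched. The ISRE core GAAANNGAA was held by Qars and Aimp2, 2 of 37 matched members, against 9.76% of all genes.

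**Figure D1:**
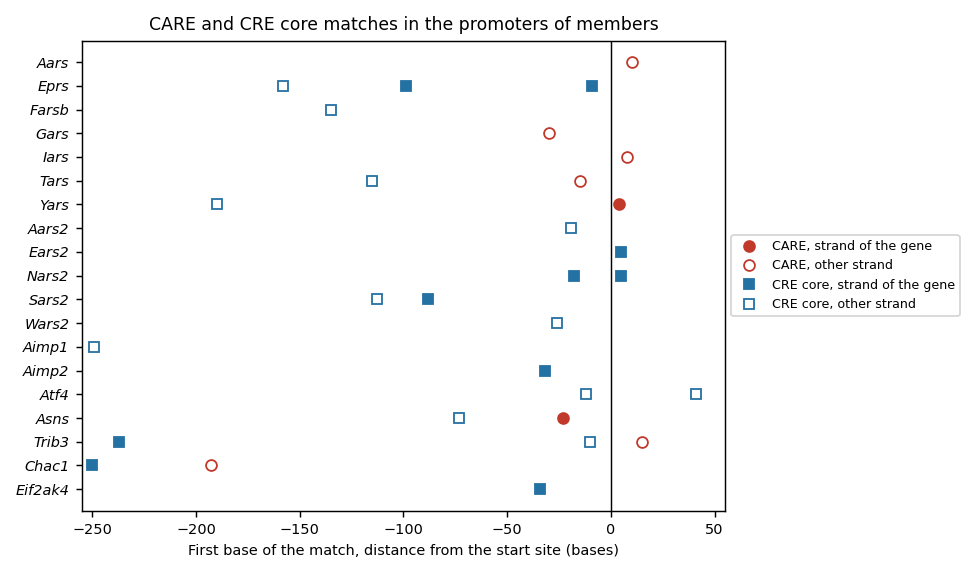
Positions of the CARE match nearest the start site (circles) and of CRE core matches (squares), as distance in bases from the start site, in the promoters of members with either motif; filled symbols are on the strand of the gene. The CARE circles are in cytosolic synthetases and ATF4 pathway genes, while the CRE core squares are in every group.

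The libraries held 32108408, 53165872 and 57117456 expected counts in replicates 1, 2 and 3. Levels are given as TPM, the authors' length-scaled share of all transcripts in a library. Macrophage markers summed to 5289, 4419 and 4860 TPM over 8 genes, led by Lyz2, Cd68, Adgre1 and Fcgr1, with Itgam and Mertk lowest. The 10 markers of other blood and stromal cells summed to 0.31, 0.18 and 0.13 TPM, led by Siglech, Prss34, Cpa3 and Col1a1. Cd3e, Ly6g, Hbb-bs, Cd209a and Gp9 were listed at 0, where 3 counts in a library would give at most 0.382 TPM. Replicate 1 stood apart from the others in RNAs that are kept in the nucleus. The 8 listed nuclear RNAs summed to 1437, 134 and 171 TPM in replicates 1, 2 and 3, led by Malat1, Neat1, Xist and Firre, with Meg3 and Miat listed at 0. Replicate 1 also had a larger share of its TPM in nuclear-encoded protein-coding genes, 34.3% against 27.8% in each of the others. All results between libraries are therefore also given for replicates 2 and 3 alone.

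The ATF4 pathway contained the 2 highest members. Ddit3, which encodes the pro-apoptotic factor CHOP, had 127.6, 139.2 and 89.6 TPM in replicates 1, 2 and 3, and averaged 118.8 ± 26.0 TPM (SD, n = 3). Its gene lies at chr10:127290774-127296288 of the mouse genome mm10. Atf4, at chr15:80255184-80257541, had 113.2, 105.4 and 79.8 TPM and averaged 99.5 ± 17.5 TPM (SD, n = 3). Both genes were lowest in replicate 3. Their ranges overlapped, but within each library Ddit3 was higher than Atf4, by 1.13, 1.32 and 1.12 times.

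The other ATF4 targets among the members were lower. Sesn2, which restrains mTORC1 signalling when amino acids are scarce, had 10.9, 11.1 and 10.4 TPM. Asns, which makes asparagine and carries the CARE printed above, had 9.11, 12.8 and 7.57 TPM in replicates 1, 2 and 3. Trib3, a pseudokinase that feeds back on ATF4 and CHOP, had 7.75, 11.21 and 5.20 TPM. Asns and Trib3 were highest in replicate 2 and lowest in replicate 3, while the Sesn2 values lay close together. Chac1, which degrades glutathione, had 1.01, 1.17 and 0.95 TPM, from 65 to 155 counts per library. Ddit3 thus exceeded Chac1 by 126, 119 and 94.3 times in replicates 1, 2 and 3, although both are textbook targets of the pathway.

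A list of 31 further ATF4 targets, described with results of these data known, spanned 0 to 150.9 mean TPM. The highest were Slc3a2, the heavy chain of amino acid transporters, at 150.9 TPM, Atf3 at 98.4 TPM, Nupr1 at 90.3 TPM and the stress cytokine gene Gdf15 at 27.9 TPM. The lowest were Vldlr at 0.00667 TPM and the hormone gene Fgf21, which was listed at 0 in all 3 libraries, where 3 counts would give at most 0.0915 TPM. Of the 31 targets, 8 reached 10 TPM and 22 reached 1 TPM in every library. Over 22028 protein-coding genes, the shares at these minima were 17.3% and 41.4%.

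All 20 cytosolic synthetases were detected at 6.28 TPM or more on average, and 14 of them reached 10 TPM in every library, against 17.3% of 22028 protein-coding genes. Together they made 395, 377 and 340 TPM in replicates 1, 2 and 3. As a share of the TPM of nuclear-encoded protein-coding genes this was 0.115, 0.136 and 0.123%, lowest in replicate 1. Nars, for asparagine, was highest with 43.4, 45.0 and 36.7 TPM and a mean of 41.7 ± 4.4 TPM (SD, n = 3). Sars, for serine, had 38.4, 43.6 and 32.9 TPM, and Aars, for alanine, had 35.5, 35.6 and 29.6 TPM. The range of Sars overlapped those of Nars and Aars, while every Nars value lay above every Aars value, and within each library the order of the 3 genes was the same. Kars (lysine) followed at 23.3 TPM, Cars (cysteine) and Gars (glycine) at 21.7 TPM each, Wars at 21.4 TPM, Eprs (glutamate and proline) at 21.2 TPM, Qars (glutamine) at 20.8 TPM and Rars (arginine) at 20.8 TPM. The SD of these 7 genes over the libraries was between 0.97 and 4.64 TPM, so their order is not resolved.

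The lower part of the cytosolic group began with Dars (aspartate) at 18.5 TPM, Farsb at 15.7 TPM, Hars (histidine) at 14.0 TPM and Lars (leucine) at 11.8 TPM. Farsa averaged 9.09 TPM, Yars (tyrosine) 8.64 TPM, Mars (methionine) 7.92 TPM, Tars (threonine) 7.35 TPM, Iars (isoleucine) 7.03 TPM and Vars (valine) 6.28 TPM. The SD of Farsa, Yars, Mars, Tars, Iars and Vars was at most 0.40 TPM. Farsa and Farsb encode the paired subunits of the phenylalanine enzyme, and Farsb was higher by 1.75, 1.78 and 1.64 times in replicates 1, 2 and 3. The 5 cytosolic genes with a CARE were spread over this order, from Aars to Iars.

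The Aars value has a limit of annotation. The whole 1326-base exon of Exosc6, which encodes a subunit of the RNA exosome, lies within the last exon of the Aars transcript Aars-201, on the same strand. Exosc6 was listed at 0 in all 3 libraries in both of the authors' quantifications, so reads from Exosc6 may be counted in Aars.

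Membership of the multisynthetase complex and enzyme class went with small differences in level. The 8 synthetases that belong to the complex, Eprs, Iars, Lars, Mars, Qars, Rars, Kars and Dars, had medians of 20.9, 19.1 and 17.9 TPM in replicates 1, 2 and 3. The 12 outside it had medians of 19.6, 17.3 and 17.1 TPM. The ratio of these medians was 1.07 ± 0.03 (SD, n = 3). The genes were also listed by enzyme class, 10 as class I and 10 as class II, classes that differ in the fold of the catalytic domain. Eprs, for glutamate and proline, was counted in class I only, and both Farsa and Farsb in class II. With this assignment, the class I median over the class II median was 0.823, 0.748 and 0.809 in replicates 1, 2 and 3. The class I list was thus lower in every library. The scaffold genes differed from each other. Aimp1, whose product holds Rars in the complex, averaged 13.1 ± 0.8 TPM, and Aimp2, on which the complex is assembled, averaged 2.55 ± 0.23 TPM (SD, n = 3 each). Aimp2 shares 487 exon bases with the kinase gene Eif2ak1, which lies on the other strand.

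**Figure D2:**
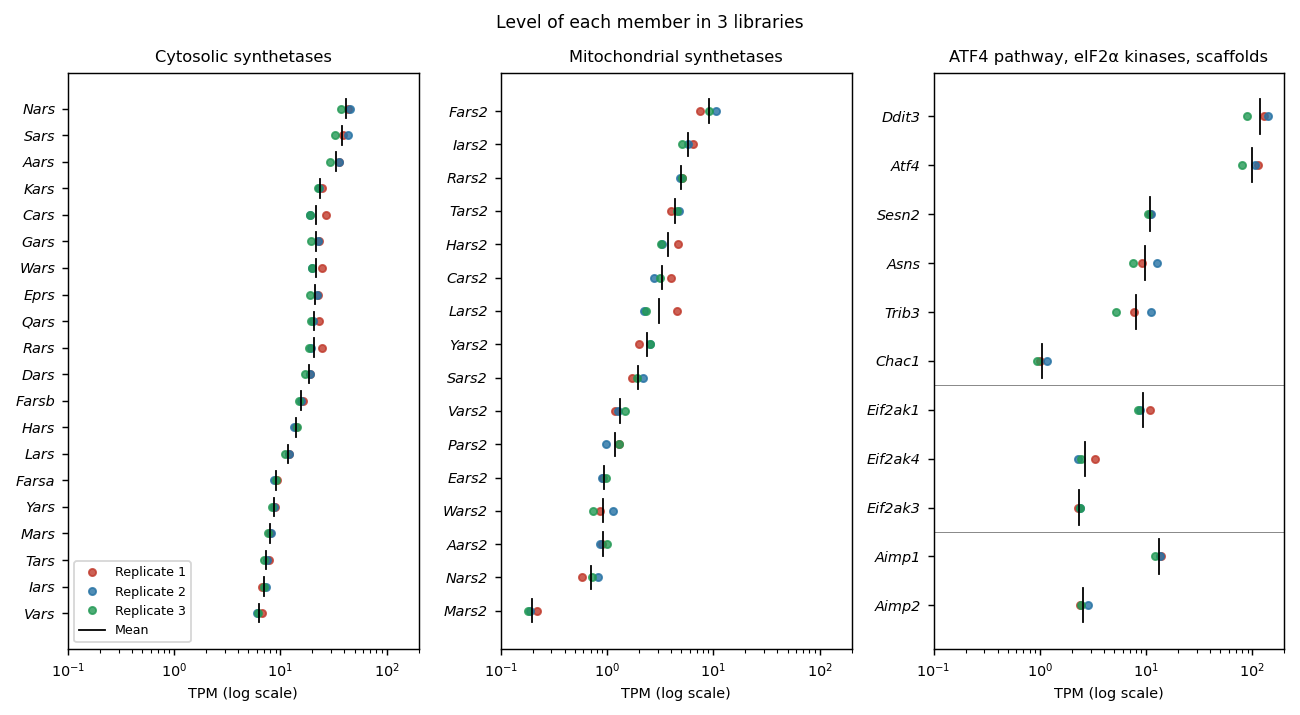
TPM of each of the 47 members in replicates 1, 2 and 3 (points, log scale) with the mean as a black bar, for cytosolic synthetases, mitochondrial synthetases, and the ATF4 pathway with kinases and scaffolds. Cytosolic synthetases average 6.28 TPM or more, whereas the mitochondrial ones reach down to 0.197 TPM, and Ddit3 and Atf4 stand above all others.

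Wars did not stand out in level among the cytosolic synthetases. It had 24.7, 20.0 and 19.6 TPM in replicates 1, 2 and 3, against medians of 19.1, 19.0 and 17.2 TPM over the other 19. The ratio was 1.29, 1.05 and 1.14, with a mean of 1.16 ± 0.12 (SD, n = 3). Wars ranked 5, 8 and 5 among the 20 genes in replicates 1, 2 and 3. For scale, 20 interferon-stimulated genes had a median of 260.5 TPM, from Ifit2, Rsad2, Irf7 and Ifit3 at the top to Irf1 and Oas2 at the bottom, the last at 20.7 TPM. Wars was therefore at the level of the other synthetases and near the lowest of those genes.

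Mitochondrial synthetases were lower as a group. None of the 16 reached 10 TPM in every library, and 10 reached 1 TPM, against 41.4% of protein-coding genes at that minimum. The median was 20.9, 19.0 and 17.9 TPM for the cytosolic group and 1.85, 2.20 and 2.14 TPM for the mitochondrial group in replicates 1, 2 and 3. The ratio was 11.3, 8.67 and 8.39. On the scale of log2(TPM + 1), the cytosolic median exceeded the mitochondrial median by 2.94, 2.65 and 2.59.

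The highest mitochondrial members were Fars2 at 9.03 ± 1.53 TPM, Iars2 at 5.79 ± 0.69 TPM, Rars2 at 4.997 ± 0.118 TPM and Tars2 at 4.41 ± 0.39 TPM (SD, n = 3 each). Hars2 at 3.72 TPM, Cars2 at 3.30 TPM, Lars2 at 3.06 TPM, Yars2 at 2.35 TPM and Sars2 at 1.94 TPM followed. Vars2 averaged 1.32 TPM, Pars2 1.20 TPM, Ears2 0.93 TPM, Aars2 0.91 TPM, Wars2 0.91 TPM and Nars2 0.71 TPM. Wars2, the mitochondrial counterpart of Wars, was thus among the lowest. Mars2, for methionine, was lowest with 0.22, 0.19 and 0.18 TPM, from 111 to 212 counts over an annotated transcript of 11294 bases. Lars2 had 4.60, 2.22 and 2.35 TPM, so that replicate 1 lay apart from the other two.

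Paired by amino acid, the cytosolic gene was higher than the mitochondrial gene in every library for 16 of 17 pairs, where Eprs was set against both Ears2 and Pars2 and both phenylalanine subunits against Fars2. The ratios fell into a wide range. The largest were Nars over Nars2 at 60.02 ± 12.89, Mars over Mars2 at 40.5 ± 3.9, Aars over Aars2 at 37.2 ± 6.4 and Wars over Wars2 at 24.3 ± 5.8 (SD, n = 3 each). Eprs exceeded Ears2 by 22.9 times and Pars2 by 18.1 times, and Sars exceeded Sars2 by 19.9 times. The pairs of cysteine, valine, leucine, arginine, histidine and tyrosine had ratios between 3.73 and 6.57. The order depends on the transcripts counted. Over protein-coding transcripts alone, Wars over Wars2 was 63.6, 27.3 and 47.4 and Cars over Cars2 was 14.9, 12.0 and 8.34 in replicates 1, 2 and 3. Lars over Lars2 was lower on that measure, at 2.42, 4.44 and 3.93.

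The smallest ratios belonged to phenylalanine, threonine and isoleucine. Tars over Tars2 was 1.68 ± 0.23 and Iars over Iars2 was 1.23 ± 0.18 (SD, n = 3 each). Farsa over Fars2 was 1.24, 0.833 and 1.012 in replicates 1, 2 and 3, so this pair did not differ beyond the spread between libraries. Much of the Fars2 signal came from a noncoding transcript of 506 bases, Fars2-206, with 39.9, 38.9 and 46.1% of the gene's TPM. Over protein-coding transcripts alone, Farsa exceeded Fars2 by 1.94, 2.39 and 2.18 times. In the authors' second quantification, made directly from reads, the cytosolic gene was higher in every library for 14 of 17 pairs. Iars over Iars2 was 0.967, 1.11 and 1.23 there, below equal levels in replicate 1. Lars over Lars2 was 0.537, 2.16 and 0.840 there, against 2.63, 5.45 and 4.74 in the first. Protein-coding transcripts held only 25.6, 58.5 and 35.3% of the Lars2 TPM in the second quantification. In the first they held 93.8, 99.4 and 99.6%. The lower ratios in the second are thus not ratios of protein-coding RNA.

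**Figure D3:**
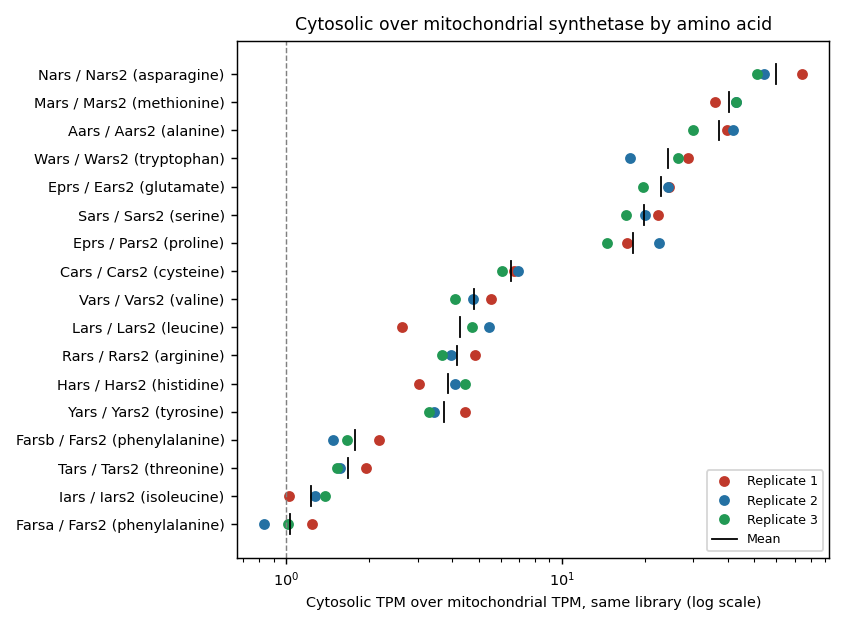
Ratio of cytosolic to mitochondrial TPM within each library (points, log scale) for 17 pairs by amino acid, with the mean as a black bar and a dashed line at equal levels. The ratio runs from 60.02 for asparagine to 1.03 for Farsa over Fars2, the pair whose points lie on both sides of the line.

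Among the kinases that phosphorylate eIF2α, Eif2ak1 (HRI, activated when haem is scarce) had 10.8, 8.67 and 8.40 TPM. Eif2ak4 (GCN2, activated by uncharged tRNA) had 3.32, 2.28 and 2.44 TPM, and Eif2ak3 (PERK, activated in the endoplasmic reticulum) had 2.27, 2.39 and 2.38 TPM. Eif2ak1 was the highest in every library, and the ranges of Eif2ak4 and Eif2ak3 overlapped. Eif2ak2 (PKR), the kinase induced by interferon and listed outside the members, had 55.9, 30.8 and 34.2 TPM, which was 5.17, 3.55 and 4.07 times Eif2ak1. Among 14 further genes of eIF2 control, the highest were Ppp1ca, a phosphatase catalytic subunit, at 89.6 TPM, Eif2ak2 at 40.3 TPM, and the eIF2 subunit genes Eif2s2 at 37.6 TPM and Eif2s3x at 28.9 TPM. The lowest were the eIF2B subunit genes Eif2b4 at 4.34 TPM and Eif2b3 at 1.98 TPM. In bulk RNA, fewer expressing cells and less RNA per cell cannot be told apart.

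Differences between libraries were tested with a chi-square test of rounded expected counts against a single rate per gene, with Benjamini-Hochberg adjustment over 13579 genes of at least 10 mean counts. At an adjusted p of 0.05, 36 of 47 members and 73.4% of all genes varied, so the members as a whole were near the background. Called were 18 of 20 cytosolic synthetases, 10 of 16 mitochondrial synthetases, both scaffolds, 5 of 6 ATF4 pathway genes and 1 of 3 kinases, Eif2ak3. The cytosolic genes that were not called were Wars and Rars. The mitochondrial genes that were not called were Ears2, Fars2, Hars2, Mars2, Pars2 and Wars2, and the ATF4 pathway gene was Chac1. Such a call compares these 3 libraries and says nothing of treatment. The libraries are labelled as biological replicates with 1 shared donor entry, and separate mice are not named, so the test covers the spread between these libraries only.

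Of the 6 ATF4 pathway genes, 4 were called as higher in replicate 2 than in replicate 3, the libraries most alike, with a common biological coefficient of variation (BCV, from edgeR) of 0.121 between them against 0.382 over all 3. The log2 CPM, counts scaled to the library total, was higher in replicate 2 for 6 of 6 genes. The difference was 1.05 for Trib3, 0.72 for Asns, 0.65 for Ddit3, 0.37 for Atf4, 0.27 for Chac1 and 0.05 for Sesn2. In folds, Trib3 was 2.08 times, Asns 1.65 times, Ddit3 1.57 times and Atf4 1.30 times as high in replicate 2 as in replicate 3. The same chi-square test on replicates 2 and 3 alone called Trib3, Asns, Ddit3 and Atf4 and did not call Chac1 and Sesn2. Over all 13091 genes tested, 39.8% were called, 19.3% as higher in replicate 2 and 20.5% as higher in replicate 3.

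The wider list of ATF4 targets, described with results of these data known, mostly had the same direction. Of its 25 genes with at least 10 mean counts, 20 were called between replicates 2 and 3, against 39.8% of all genes tested. Of the called genes, 19 were higher in replicate 2, against 19.3% of all genes tested. The exception among them was Cebpb, with a difference of -0.37. Called or not, 22 of the 25 were higher in replicate 2. The median difference of the 25 was 0.27, against 0.00 over all genes tested. Picked after their values were seen, the largest differences were in Aldh1l2 at 1.05, Gadd45a at 1.00, Atf5 at 0.96 and the serine synthesis gene Phgdh at 0.74. Aldh1l2 was very low, with 0.08, 0.21 and 0.10 TPM from 20, 112 and 57 expected counts in replicates 1, 2 and 3. Slc3a2 at 0.20, Atf3 at 0.27, Nupr1 at 0.26 and Gdf15 at 0.46 were also called.

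Of 20 cytosolic synthetases, 9 were called between replicates 2 and 3, near the 39.8% of all genes tested. Called as higher in replicate 2 were 7 of 20, against 19.3% of all genes tested. Their differences were 0.35 for Sars, 0.24 for Nars, 0.23 for Aars, 0.17 for Gars, 0.15 for Eprs, and 0.11 for Dars and for Lars. Vars at -0.12 and Hars at -0.11 were called in the other direction. Among the genes with a CARE, Aars and Gars were called, while Iars at 0.05, Tars at 0.05 and Yars at -0.03 were not. The group median was 0.04, against 0.00 over all genes tested. Of 16 mitochondrial synthetases, 2 were called, a smaller share than over all genes tested. Iars2 was higher in replicate 2, at 0.11, and Lars2 was higher in replicate 3, at -0.17. The median of the 16 was -0.07. The kinases Eif2ak1, Eif2ak3 and Eif2ak4 had differences of 0.00, -0.04 and -0.11 and were not called.

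Replicate 2 was the highest library in log2 CPM for 6 of 6 ATF4 pathway genes and 19 of 25 further targets, against 34.4% of all genes tested. It was the highest for 11 of 20 cytosolic and 5 of 16 mitochondrial synthetases. On the TPM scale, Atf4 was highest in replicate 1, and the count for the ATF4 pathway was 5 of 6. The 20 interferon-stimulated genes had the opposite order: all 20 were called as lower in replicate 2 than in replicate 3, with a median difference of -0.26, and all 20 were highest in replicate 1, against 38.1% of all genes tested.

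Replicate 1 was lower than the mean of the others in log2 CPM for 42 of 47 members, against 54.4% of all genes tested. The log2 CPM of replicate 1 minus the mean of replicates 2 and 3 had a median of -0.24 for cytosolic synthetases, -0.23 for mitochondrial synthetases, -0.31 for the ATF4 pathway and -0.01 for the kinases, whose sign turned with TMM scaling. The median was 0.65 for interferon-stimulated genes and -0.04 for all genes tested. The value for all genes moves with the scaling, to 0.20 on the TPM scale and 0.21 in the second quantification. On the TPM scale, the median turned to 0.09 for cytosolic synthetases and 0.01 for the ATF4 pathway, and was -0.02 for mitochondrial synthetases. In the second quantification it was -0.01 for cytosolic synthetases and -0.11 for the ATF4 pathway and turned to 0.09 for mitochondrial synthetases. Relative to all genes, the median over 6 scalings lay between -0.22 and -0.11 for cytosolic synthetases, between -0.25 and -0.12 for mitochondrial synthetases and between -0.32 and -0.19 for the ATF4 pathway. It lay between 0.65 and 0.76 for interferon-stimulated genes.

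In replicate 1, Wars lay between the medians of the cytosolic synthetases and of the interferon-stimulated genes. Its log2 CPM there minus the mean of replicates 2 and 3 was -0.02, with 88.77, 90.01 and 90.22 CPM in replicates 1, 2 and 3. Relative to all genes, it lay between -0.04 and 0.11 over 6 scalings. Among cytosolic synthetases, Cars at 0.12 and Rars at 0.02 were higher on this measure, and the lowest was Iars at -0.45. The lowest of the 20 interferon-stimulated genes, Bst2 at 0.14, was above Wars. Eif2ak2 had 0.30. With counts scaled to the library total, Wars did not vary beyond counting error over the 3 libraries, while all 20 interferon-stimulated genes were called. Wars was highest in replicate 1 on the TPM scale, by 0.31, and in the second quantification, by 0.17. The median of all genes was 0.20 and 0.21 on these scales. Nuclear RNA moved with this contrast, as given above, and its part in the values of replicate 1 was not tested.

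**Figure D4:**
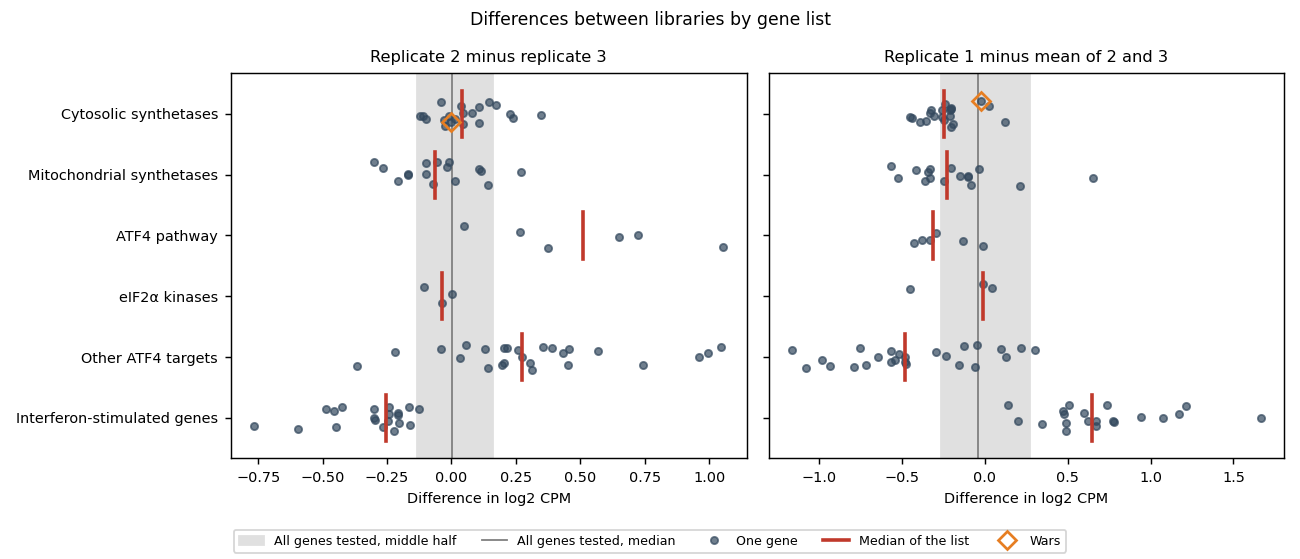
Difference in log2 CPM between replicates 2 and 3 (left) and between replicate 1 and the mean of the others (right) for each gene (points) with the list median (red), and the interquartile range and median of all genes tested (grey). The ATF4 pathway has a median of 0.51 on the left and interferon-stimulated genes of -0.26, and Wars (diamond) lies at -0.02 on the right.

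The spread between libraries was expressed per gene as edgeR's tagwise BCV. Its median was 0.151 over the members, from 0.107 for Eif2ak1 to 0.401 for Chac1, and 0.183 over all genes. It was 0.131 for cytosolic synthetases, 0.240 for mitochondrial synthetases and 0.212 for the ATF4 pathway. A tagwise BCV from 3 libraries is drawn toward that of genes of similar count, so it also follows depth. Mars2, at 3.47, 3.75 and 3.71 CPM in replicates 1, 2 and 3, was not called as varying but had 0.301. The groups differ in depth, so these medians do not compare their spread alone. In replicates 2 and 3 alone, the medians were 0.0833 for cytosolic synthetases, 0.132 for mitochondrial synthetases and 0.162 for the ATF4 pathway, against 0.107 for all genes. Trib3, at 0.226, had the highest BCV of the members there.

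Most members were represented by a single annotated protein-coding transcript. The leading transcript was protein-coding for 43 of 47 members and held over 80% of the gene's TPM for 33. Wars-201 held 81.5, 84.5 and 86.0% of Wars in replicates 1, 2 and 3, and Atf4-201 held 98.7, 99.6 and 99.5% of Atf4. The exceptions, by the mean share over libraries, were Qars, Cars2, Fars2 and Wars2. Qars was led by Qars-231, annotated as a target of nonsense-mediated decay, with 34.4, 48.3 and 44.6%, and the coding Qars-203 held 23.7, 19.9 and 23.0%. Cars2 was led on average by the noncoding Cars2-202 with 36.2, 39.8 and 33.5%, close to the coding Cars2-201, which held 27.9, 36.4 and 42.6% and was the higher of the pair in replicate 3. Wars2-203, another decay target, held 56.1, 34.8 and 44.2% of Wars2, and the coding Wars2-201 held 43.9, 38.6 and 47.7%, which was higher in replicates 2 and 3. The 2 quantifications named different leading transcripts for 3 members, Iars, Lars2 and Wars2. For Iars, Iars-206 held 97.5, 100 and 98.2% in the first and 9.60, 4.49 and 0.012% in the second.

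Transcripts annotated with a retained intron took their largest share in replicate 1. Of 36 members at 1 mean TPM or more with such a signal, 34 had the highest share in replicate 1, against 85.8% of 5644 protein-coding genes chosen in the same way. The median share over these members was 3.905, 0.38 and 0.555% in replicates 1, 2 and 3, and over all such genes it was 5.855, 0.81 and 0.80%. All 20 cytosolic synthetases were among the 34. Hars2 had 29.1, 3.9 and 3.7%, Tars2 had 13.0, 1.2 and 1.3%, and Eprs had 10.6, 2.6 and 2.2%. The exceptions were Vars2 and Yars2, both highest in replicate 3. The share in replicate 1 moved with the nuclear RNAs given above, and their part in it was not tested.

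**Figure D5:**
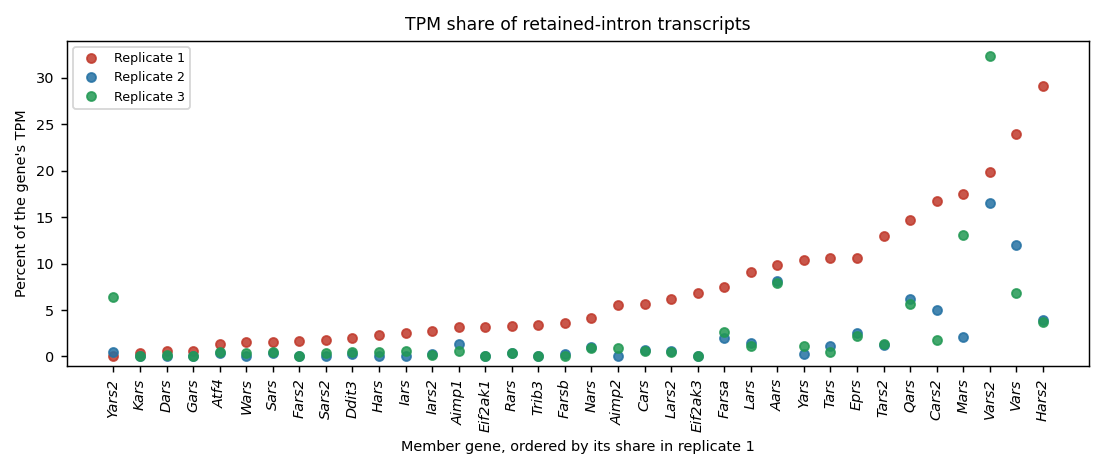
Share of each gene's TPM in transcripts annotated with a retained intron, in percent, for 36 members in replicates 1, 2 and 3 (points), ordered by replicate 1. The red points of replicate 1 are highest for 34 of 36 genes, up to 29.1% for Hars2.

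Overlapping genes limit some of these values. Exons of 18 of the 47 members share bases with another annotated gene on the opposite strand, and no source used here gives the strand setting of the counting. The largest overlap in bases was between Iars2 and Rab3gap2, with 2034 bases, or 22.9% of the exon bases of Iars2. As a share of the member, the largest was that of Aimp2 with Eif2ak1, at 29.4% of the exon bases of Aimp2. Eif2ak1 averaged 9.29 TPM, against 2.55 TPM for Aimp2. Some members overlap each other: Hars and Hars2 share 195 bases, and Ddit3 and Mars share 68. Reads from such stretches cannot be told apart without strand. On the same strand, a second annotated gene named Ddit3 lies wholly within exons of the member Ddit3, over 105 bases. That second gene was listed at 0 mean TPM.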

How the data were processed

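Cytosolic RNA of 3 libraries of 1 group was measured. Per the accompanying notes and file headers, the authors quantified reads against mm10 with GENCODE M21 and deposited expected counts, TPM and interval bounds per gene, and TPM and percent of gene TPM per transcript. A second deposited set holds estimated counts and TPM per transcript from reads directly. No source used here gives their tool versions. Members were joined by symbol and gene ID, and Gcn1 was read under its older symbol Gcn1l1. Where a symbol named several genes, as Ddit3 did, the gene of higher mean TPM was taken. The members and lists were chosen with earlier results of these data known. Expected counts were rounded for the chi-square test (scipy 1.17.1, 2 degrees of freedom) and for edgeR 4.0.16, which gave BCV with TMM scaling. Genes needed a mean of 10 counts. log2 CPM used a prior of 2 counts, and group levels a pseudocount of 1 TPM. The test was run on simulated counts first. Every member was named, and of other lists the 4 highest and 2 lowest by mean TPM. Alternatives were other scalings, filters, the direct quantification and leaving out each library. The floor of 3 counts covers counting error only. Some promoter motif matches are not reported here.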

Additional observations from a re-analysis of the deposited data

How the results depend on the processing

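No paired analysis was possible because the series has 1 group. Of 92 recomputed values, 64 stayed within their limits. Leaving out each replicate in turn, genes varying between libraries numbered 5210 to 9002, against 9968, and members 15 to 37, against 36, with the lowest values without replicate 1. The members' median BCV was 0.0974 to 0.191, against 0.151, again lowest without replicate 1. The cytosolic minus mitochondrial level of 2.71 (log2) was 3.14 with a pseudocount of 0.1 and 3.01 scaled over nuclear protein-coding genes. The level was 2.33 in the direct quantification and 2.52 without Gars and Kars, which are listed as serving both compartments. It was 2.56 over protein-coding transcripts, a choice made after seeing the data. The 18 members at 10 TPM in every library became 32 scaled over nuclear protein-coding genes, 4 in the direct quantification, 29 at a minimum of 5 TPM and 40 at 1 TPM. The departure of replicate 1 for cytosolic synthetases became -0.0105 in the direct quantification. For mitochondrial synthetases it became -0.189 with median-ratio size factors and turned to 0.0940 in the direct quantification. For the kinases it turned to 0.0206 with TMM, 0.0276 with median-ratio factors and 0.203 in the direct quantification. The cause was not tested. Depth limits Chac1 and the mitochondrial synthetases near 1 TPM most.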

Other observations

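Other genes that act in tRNA charging, handling or export were low and close to the mitochondrial synthetases in level. Over 10 such genes the median was 2.87 TPM. The highest were Xpot, which exports tRNA from the nucleus, at 8.63 TPM, Gatc, a subunit of the mitochondrial amidotransferase that makes glutaminyl-tRNA, at 7.34 TPM, Pus1, which makes pseudouridine in tRNA, at 4.88 TPM and Aarsd1 at 3.94 TPM. The lowest were Dtd1, which removes D-amino acids from tRNA, at 1.10 TPM and the synthetase-like gene Tarsl2 at 1.02 TPM. The third scaffold of the synthetase complex, Eef1e1, averaged 2.61 TPM, so that Aimp1 was 5.01 ± 0.37 times as high (SD, n = 3).

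The deposited quantifications differed for Lars2. Direct estimated counts over expected counts were 4.48, 1.73 and 2.54 in replicates 1, 2 and 3. Retained-intron transcripts held 34.6, 41.5 and 64.7% of the Lars2 TPM in the direct quantification, against 6.19, 0.57 and 0.44% in the first. For Atf4 the same ratio was 1.07, 1.05 and 1.04.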
